A study of Homo sapiens with 15 samples.

Results

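The sirtuins are a family of 7 human enzymes, SIRT1 to SIRT7, and all 7 genes were found by symbol among the 57272 genes of the count table. They were measured by RNA-seq in MRC-5 cells, primary fibroblasts of human fetal lung. The cells were young or senescent, with and without extra TRF2, or young after loss of Lamin B1. All 7 sirtuins were among the 15799 genes with enough reads to be tested. SIRT4 had the fewest reads of the family, with 15 to 63 per library.

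Sirtuins remove acetyl or other acyl groups from lysines, and some transfer ADP-ribose. They use up NAD+ in each reaction, so their activity depends on NAD+ supply as well as on enzyme amount. SIRT1 acts mainly in the nucleus on histones and transcription factors, SIRT6 on chromatin, including that of telomeres, and SIRT7 in the nucleolus, where ribosomal RNA is transcribed. SIRT2 is mostly cytoplasmic and deacetylates tubulin, while SIRT3, SIRT4 and SIRT5 reside in mitochondria. SIRT3 is the main mitochondrial deacetylase, SIRT4 restrains glutamate dehydrogenase, and SIRT5 removes succinyl, malonyl and glutaryl groups. Loss of SIRT1 or SIRT6 has long been linked with cellular senescence.

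The 15 libraries cover 5 conditions with 3 replicates each, all from MRC-5 cells cultured at 5% oxygen. Young cells were taken at population doubling (PD) 30, after 6 days with a lentiviral vector that was empty or expressed TRF2, the shelterin protein that caps telomeres. Young siLMNB1 cells had the empty vector per the labels and received an siRNA pool against LMNB1, the gene of the nuclear lamina protein Lamin B1. By the same labels the other conditions received a control siRNA. Senescent cells with the empty vector were collected at PD 71. Senescent TRF2 cells were collected at PD 75, after about 25 PD with the vector, so TRF2 had been expressed far longer there than in the young cells. MRC-5 is a line from a single fetal lung, and the methods state triplicates, which a legend for young and senescent cells calls biological replicates, without saying whether these were separate cultures, so p-values measure the spread between these libraries. The labels mark the 6 senescent libraries as a reanalysis and not the 9 young ones, without naming a source. Senescence and whatever this reanalysis mark stands for cannot be told apart.

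The libraries held 26725885 to 43116046 counted reads. LMNB1 lay between 58.6 and 61.0 CPM (counts scaled to a common library size) in young cells with the empty vector and between 2.36 and 2.91 CPM with siLMNB1. TERF2, the gene of TRF2, lay between 21.9 and 25.5 CPM in young cells with the empty vector, between 128 and 307 CPM with TRF2 in young cells and between 210 and 285 CPM with TRF2 in senescent cells. All 9 fibroblast markers examined were present, with a summed level of 20130 to 34827 CPM in each library. Of these, edgeR called 1 up and 5 down in senescent against young cells with the empty vector. Over all genes tested, 32.7% were called up and 31.9% down. Of the epithelial markers, SFTPC had no read in any library and CDH1 at most 9, while KRT8 and KRT19 reached 756 and 296 reads. The summed epithelial level was 11.2 to 13.1 CPM in young and 18.8 to 30.2 CPM in senescent cells with the empty vector, where KRT8 and KRT19 were called up. EPCAM had a mean of 0.291 CPM in these young and 0.125 CPM in these senescent cells and was not called. The summed endothelial level was 1.59 to 2.57 CPM and 2.79 to 4.15 CPM in these groups, and VWF was called up. KDR, which was not called, had means of 1.05 and 0.669 CPM there, and PECAM1 had 0.203 and 0.111 CPM. CD3E had no read in any library and PTPRC had at most 4. Summed leukocyte markers rose from at most 0.279 CPM in young cells with the empty vector to at least 1.44 CPM in the senescent ones, all but a few of these reads from CD14. The part of other cell types in the sirtuin values was not tested. In bulk RNA, fewer cells of a type and less RNA per cell cannot be told apart. Relative to the young empty-vector mean, the log2 level moved per 10 points of gene GC content with a slope of −0.00633 to 0.134 over the 9 young libraries, and of 0.460 to 0.823 over the 6 senescent ones. The highest slope, 0.823, belonged to the third senescent replicate with the empty vector. Each comparison was therefore fitted a further time with a correction per library for the GC content and length of each gene, called the offsets here.

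The starts of the sirtuin genes differ in sequence and in what lies next to them, and 4 stretches are shown. SIRT1 and SIRT4 were chosen by the results, and SIRT3 and SIRT6 by a neighbouring gene. SIRT1 was the member that fell in senescence and SIRT4 the member with the largest rise. SIRT3 and SIRT6 each start next to a gene that runs the other way, with a short gap between the starts. SIRT2 also starts at such a gene, NFKBIB, but the 2 genes overlap there, so no gap is shown. The sequences are from RefSeq on GRCh38.p14, 5′ to 3′ on the sirtuin's strand. SIRT1 is shown over the 250 bases before its start (chr10:67884406-67884655, plus strand) and SIRT4 over the 250 bases before its start (chr12:120302071-120302320, plus strand). For SIRT3, the 34 bases between its start and that of PSMD13, a proteasome subunit gene, are shown (chr11:236932-236965, minus strand). For SIRT6, the 122 bases between its start and that of ANKRD24 are shown (chr19:4182567-4182688, minus strand). Capitals mark matches on either strand to GGGCGG (the GC box, bound by SP1), CACGTG (the E-box, bound by MYC and USF), CCAAT, TGACGTCA (the cyclic AMP response element) or TATAAA.
SIRT1: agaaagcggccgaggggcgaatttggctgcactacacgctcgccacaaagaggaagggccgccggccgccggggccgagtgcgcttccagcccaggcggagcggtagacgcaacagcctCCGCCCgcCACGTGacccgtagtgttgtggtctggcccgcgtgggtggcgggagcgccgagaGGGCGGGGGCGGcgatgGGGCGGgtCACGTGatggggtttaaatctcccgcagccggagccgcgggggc
SIRT4: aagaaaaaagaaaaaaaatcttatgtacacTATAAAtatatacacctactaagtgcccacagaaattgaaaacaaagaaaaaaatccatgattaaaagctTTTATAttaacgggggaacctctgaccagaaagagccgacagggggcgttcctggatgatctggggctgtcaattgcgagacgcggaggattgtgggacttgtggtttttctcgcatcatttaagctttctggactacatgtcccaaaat
SIRT3: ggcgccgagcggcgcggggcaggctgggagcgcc
SIRT6: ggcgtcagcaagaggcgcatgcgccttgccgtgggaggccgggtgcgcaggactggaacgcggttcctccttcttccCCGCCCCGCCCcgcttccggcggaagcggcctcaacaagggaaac
Over the 250 bases before each start, SIRT1 held 4 GC boxes and 2 E-boxes. The E-box letters occur in 6.31% of the 34788 human windows of this length, and among the 6 sirtuins with a window in the table they were found for SIRT1. SIRT6 held 4 GC boxes, of which the 2 printed above overlap by a base, and SIRT5 held 1. A GC box was found in 42.6% of all windows. SIRT4 held 2 TATAAA matches, which 10.8% of windows have, and its window had a GC content of 39.6%, against 58.4% to 78.0% for SIRT1, SIRT2, SIRT3, SIRT5 and SIRT6 and a median of 58.0% for all windows. SIRT2 and SIRT6 each held a CCAAT match, found in 32.0% of windows, and the TGACGTCA letters, found in 1.64% of windows, were in none of the 6 windows. SIRT7 is named only.

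In young cells with the empty vector, sirtuin levels as RPKM, which divides CPM by kilobases of exon, differed by member. SIRT2 was highest at 7.31 ± 0.29 RPKM (SD, n = 3), followed by SIRT1 at 6.85 ± 0.08 and SIRT6 at 6.05 ± 0.19. SIRT7 followed at 2.52 ± 0.04 and SIRT3 at 1.93 ± 0.08. SIRT4 at 0.594 ± 0.231 and SIRT5 at 0.526 ± 0.012 were lowest, and these were the only neighbours in the order whose libraries overlapped. The length used is that of all annotated exons joined, which for SIRT5 spans 11295 bases, and a level per length depends on that choice. SIRT5 shares 9.37% of its exonic bases with an antisense long non-coding RNA, ENSG00000261071, and the strand setting of the counting is not given in the sources used here, so reads of the pair may not be separable. The other members share at most 1.71% of their exonic bases with another gene.

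The order differed in senescent cells with the empty vector. SIRT6 (11.8 ± 3.2 RPKM, SD, n = 3) and SIRT2 (11.3 ± 1.5 RPKM) were highest and overlapped each other. SIRT7 came next at 5.47 ± 1.39 RPKM and overlapped SIRT1 at 3.99 ± 0.88 RPKM, whose libraries overlapped those of SIRT3 at 3.04 ± 0.48 RPKM. SIRT4 lay at 1.49 ± 0.16 RPKM and SIRT5 at 0.678 ± 0.009 RPKM. Of the summed level of the 7 genes, SIRT1 made up 26.6% ± 0.8 in young and 10.9% ± 3.5 in senescent cells with the empty vector. SIRT6 made up 23.5% ± 0.6 and 30.9% ± 3.7 of it, and SIRT7 9.77% ± 0.34 and 14.4% ± 1.6. These levels and shares were computed without the offsets, so the difference in GC slope between young and senescent libraries is part of them.

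**Figure D1:**
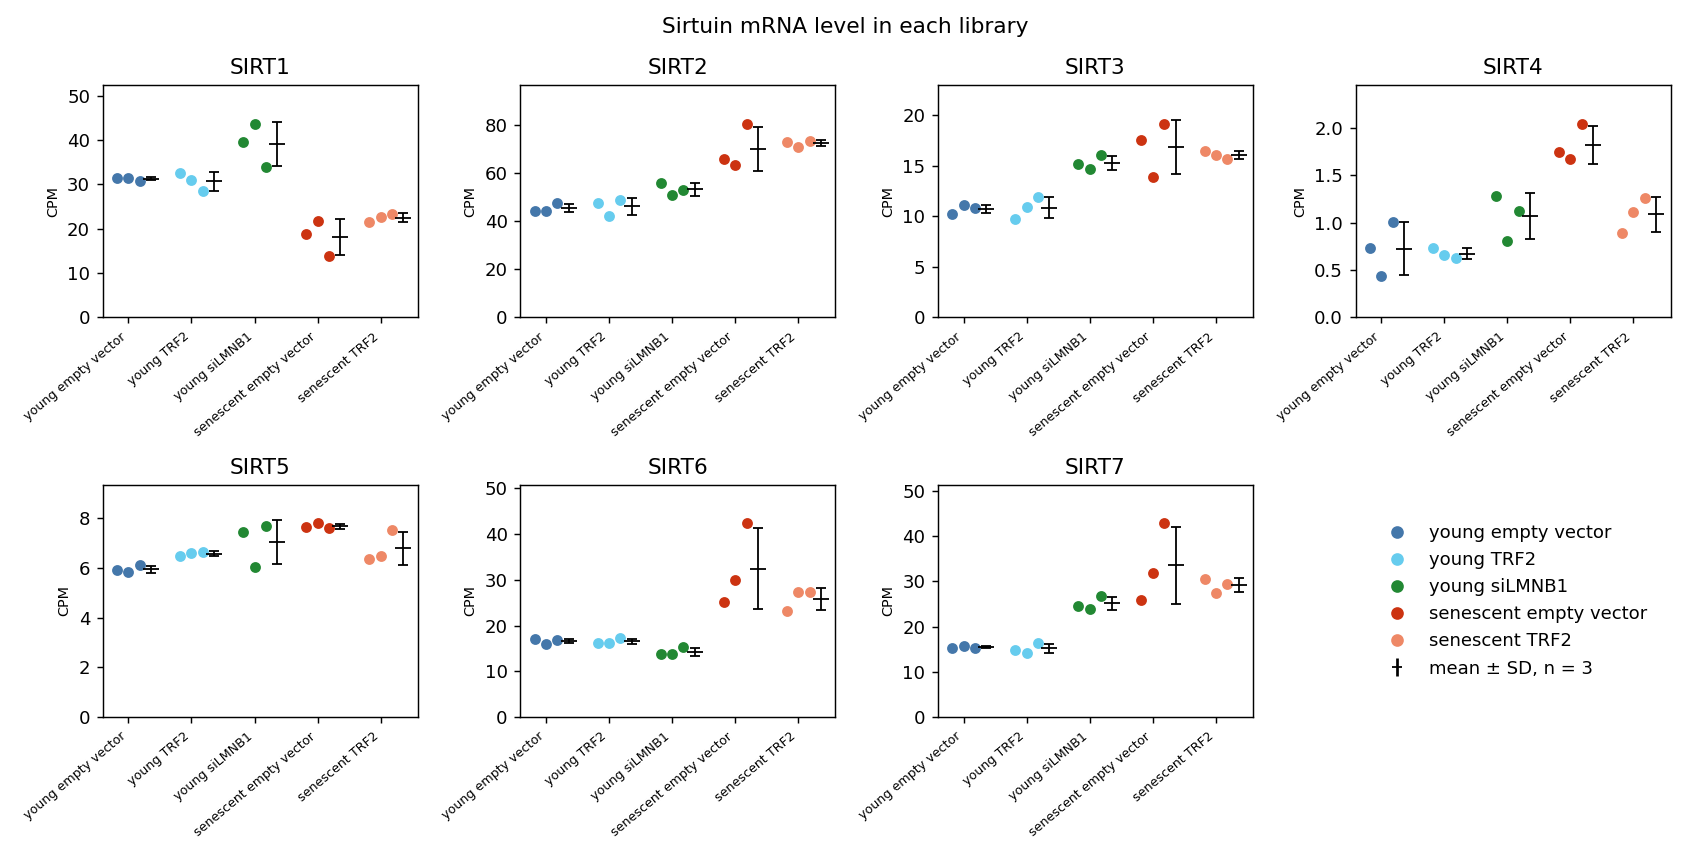
Level of each sirtuin in CPM (y axis, from 0) in the 15 libraries. Points are libraries, ordered by replicate number within each of the 5 conditions, and black bars are the mean and SD of 3 replicates. SIRT1 is lower in both senescent conditions than in the young ones, the other 6 genes are higher in senescent than in young empty-vector libraries, and SIRT3 and SIRT7 are also raised with siLMNB1.

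The first comparison asks what happens to sirtuin mRNA when fibroblasts senesce with the empty vector. SIRT1 fell and the other 6 sirtuins rose, called where the Benjamini-Hochberg adjusted p over all genes tested was below 0.05 in edgeR's quasi-likelihood test. By that rule, 32.7% of all genes tested were called up and 31.9% were called down, so a call in either direction was common. The median log2 fold change was 0.65 over the 7 sirtuins and 0.023 over all genes tested. In none of the 7 did the 3 senescent libraries overlap the 3 young ones. The share of all genes tested without such overlap was not counted, in this or any later comparison. Statements on overlap therefore describe single genes and do not set the sirtuins apart from other genes.

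Among the nuclear sirtuins, SIRT1 lay at 31.5, 31.4 and 30.8 CPM in young and at 18.9, 21.8 and 13.9 CPM in senescent cells. The young libraries were nearly identical, and each senescent library lay below all of them, the third farthest. SIRT1 thus fell by 0.78 on the log2 scale (SE 0.13, 95% interval −1.07 to −0.50, edgeR adjusted p = 9.3e-05). SIRT6 lay at 17.0, 16.1 and 16.8 CPM in young and at 25.1, 29.9 and 42.3 CPM in senescent cells. The third senescent replicate, the library with the highest GC slope, was the highest for SIRT6 and the lowest for SIRT1. The log2 fold change of SIRT6 was 0.97 (SE 0.15, edgeR adjusted p = 2.5e-05), and 0.71 without that library. SIRT7 lay at 15.3, 15.7 and 15.3 CPM in young and at 26.0, 31.9 and 42.8 CPM in senescent cells. Its log2 fold change of 1.12 (SE 0.14, edgeR adjusted p = 3.0e-06), a 2.17-fold difference, was 0.89 without the third senescent replicate.

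SIRT2, the cytoplasmic member, lay at 44.3, 44.3 and 47.4 CPM in young and at 65.9, 63.4 and 80.4 CPM in senescent cells. It rose in each senescent library, with a log2 fold change of 0.62 (SE 0.10, edgeR adjusted p = 3.0e-05).

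The 3 mitochondrial sirtuins rose by different amounts. SIRT3 lay at 10.3, 11.1 and 10.8 CPM in young and at 17.6, 13.9 and 19.2 CPM in senescent cells (log2 fold change 0.65, SE 0.12, edgeR adjusted p = 1.4e-04). SIRT4 lay at 0.732, 0.440 and 1.00 CPM in young and at 1.75, 1.67 and 2.04 CPM in senescent cells. It had both the largest log2 fold change of the family, 1.34, and the widest interval, 0.73 to 1.96, from the fewest reads (SE 0.29, edgeR adjusted p = 7.3e-04). SIRT5 lay at 5.89, 5.84 and 6.10 CPM in young and at 7.62, 7.78 and 7.58 CPM in senescent cells. Its replicates were the closest together, and its log2 fold change of 0.37 was the smallest (SE 0.12, edgeR adjusted p = 0.014). With all genes fitted without the filter on low counts, the adjusted p of SIRT5 was 0.098, and with only the libraries compared it was 0.0504, so the call was lost in both.

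A log2 fold change of at least 1 was reached by SIRT4 and SIRT7, where 28.4% of all genes tested were called with a change of that size in either direction. Without the third senescent replicate, only SIRT4 of the 7 reached it, and the share of all genes that did so in that fit was not counted.

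**Figure D2:**
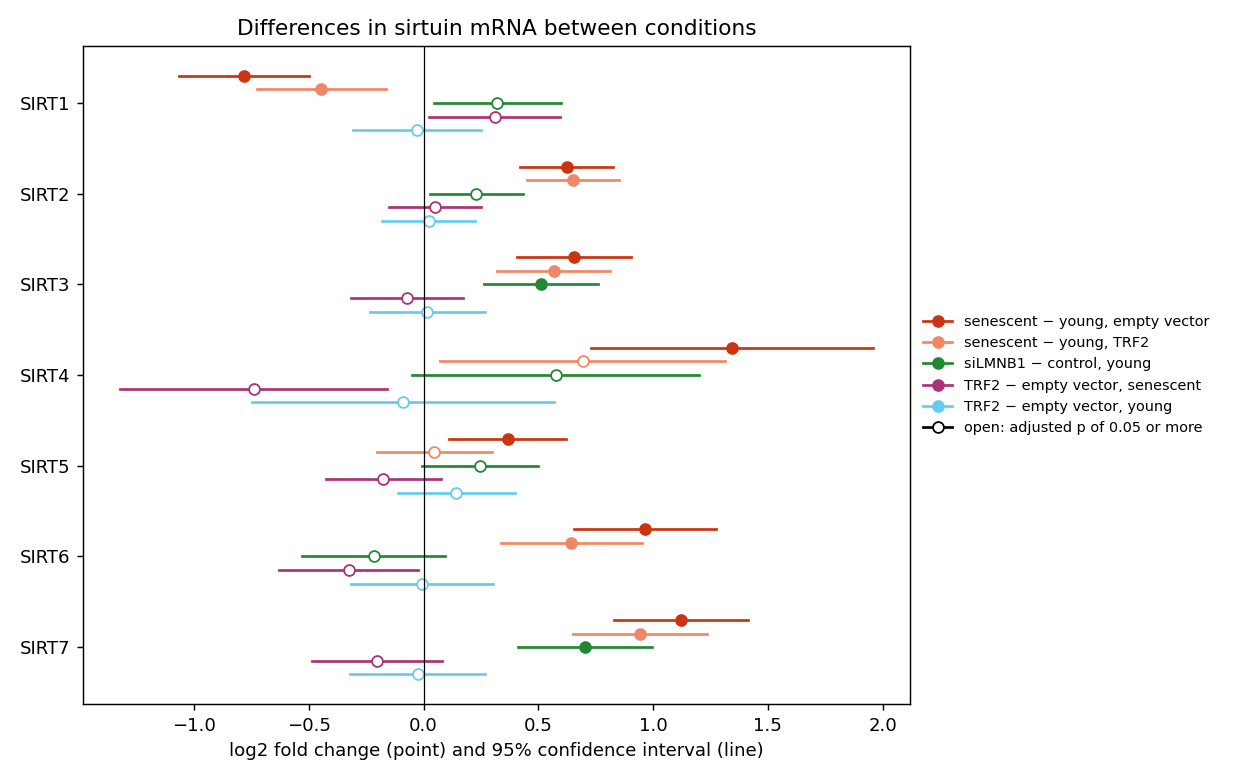
Log2 fold change (x axis) of each sirtuin in 5 comparisons, with points for the estimate, lines for the 95% confidence interval and open points where the adjusted p was 0.05 or more. SIRT1 lies left of 0 in both senescence comparisons and right of 0 with siLMNB1, and no sirtuin is called for TRF2 against the empty vector.

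The change of a gene in senescence moved with its GC content, and the sirtuins span much of that scale. The exons of SIRT1 have a GC content of 41.8% and those of SIRT6 63.6%, the ends of the range within the family. Tested protein-coding genes within 2 points of GC content of SIRT1 had a median log2 fold change of −0.42 in senescent cells with the empty vector, and those near SIRT6 had one of 0.95. With the offsets, the log2 fold change of SIRT6 was 0.10 (edgeR adjusted p = 0.34) and that of SIRT2 was −0.084 (edgeR adjusted p = 0.38), so neither was called and SIRT2 changed sign. SIRT1 was still lower, by a log2 fold change of −0.39 (edgeR adjusted p = 0.0028). Without the offsets, SIRT3, SIRT4, SIRT5 and SIRT7 had log2 fold changes above the median of genes of like GC content. SIRT6 lay barely above it, at 0.97 against 0.95. For SIRT4, SIRT5 and SIRT7, the values with the offsets were 1.23, 0.48 and 0.48 (edgeR adjusted p = 0.0015, 0.0058 and 3.4e-04), and genes near them in GC content had medians of 0.093, −0.25 and 0.62 without the offsets. SIRT3 had a log2 fold change of 0.26 with the offsets (edgeR adjusted p = 0.040), and genes near it had a median of 0.37 without them. The GC slope, the reanalysis mark and senescence moved together, and their parts in these changes cannot be told apart.

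**Figure D3:**
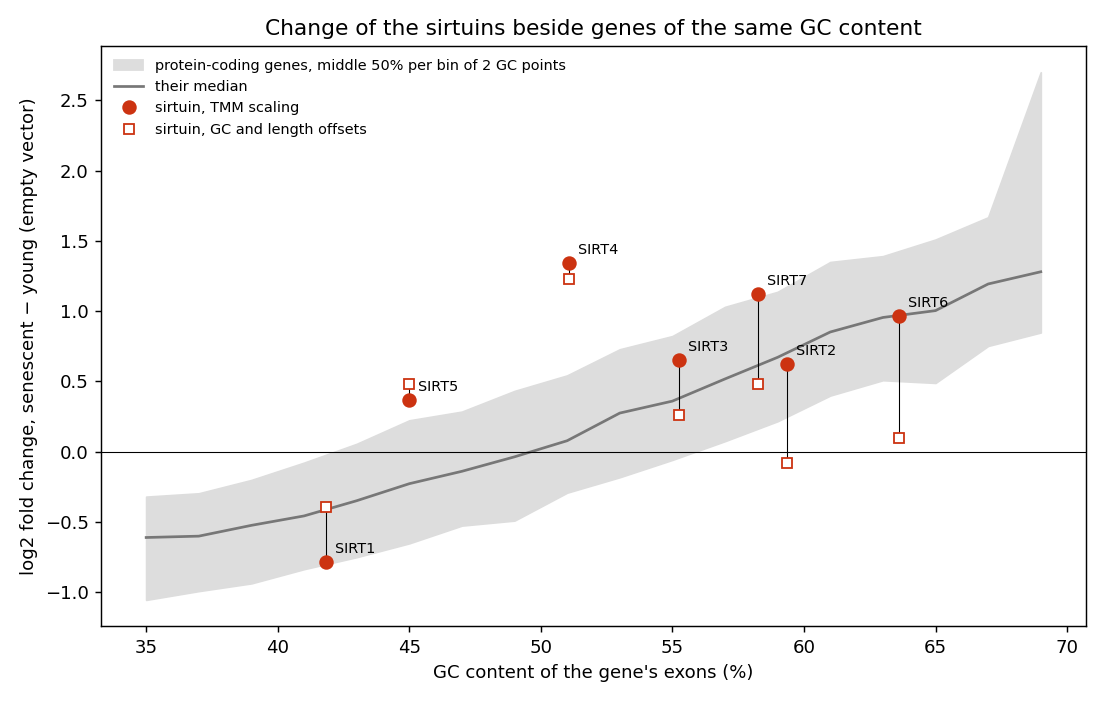
Log2 fold change of senescent over young empty-vector cells (y axis) against the GC content of a gene's exons in percent (x axis). The grey line and band are the median and middle 50% of tested protein-coding genes in bins of 2 GC points, filled points the sirtuins without offsets and open squares the sirtuins with offsets. SIRT2 and SIRT6 sit close to the grey line and move to near 0 with the offsets, while SIRT4 and SIRT5 sit above the band and change little.

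With TRF2 in both states, the same question gave smaller values for several members. SIRT1 fell and SIRT2, SIRT3, SIRT6 and SIRT7 rose, while 28.2% of all genes tested were called up and 30.1% were called down by edgeR. The sirtuins had a median log2 fold change of 0.64 and all genes tested one of −0.018. SIRT1 lay at 32.5, 31.0 and 28.5 CPM in young and at 21.4, 22.7 and 23.4 CPM in senescent TRF2 cells, without overlap (log2 fold change −0.45, SE 0.13, edgeR adjusted p = 0.0085). SIRT7 lay at 14.9, 14.2 and 16.3 CPM in young and at 30.6, 27.5 and 29.4 CPM in senescent TRF2 cells. It had the largest log2 fold change of the called members, 0.94 (SE 0.14, edgeR adjusted p = 2.0e-05). SIRT2, SIRT3 and SIRT6 had log2 fold changes of 0.65, 0.57 and 0.64, each without overlap between the groups.

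SIRT4 and SIRT5 were not called with TRF2. SIRT4 lay at 0.733, 0.653 and 0.626 CPM in young and at 0.892, 1.11 and 1.25 CPM in senescent TRF2 cells, a log2 fold change of 0.69 (interval 0.071 to 1.32, edgeR adjusted p = 0.053). SIRT5 lay at 6.47, 6.59 and 6.64 CPM and at 6.34, 6.46 and 7.52 CPM, and these groups overlapped (log2 fold change 0.047, interval −0.20 to 0.30). No sirtuin reached a log2 fold change of at least 1, which 24.0% of all genes tested did by the same call. With the offsets, SIRT3, SIRT4 and SIRT7 were called up at 0.34, 0.85 and 0.50, and SIRT1, SIRT2 and SIRT6 were not called at −0.075, 0.14 and 0.12, where that fit called 29.6% of all genes up and 25.6% down.

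The interaction asks whether the senescence change itself differed between TRF2 and the empty vector. Senescent TRF2 cells were also at a later PD, 75 against 71. No sirtuin was called, by edgeR's quasi-likelihood test. None had an unadjusted p below 0.05 by that test either, which 2494 of the 15799 genes tested had. DESeq2's Wald test also called none. Over all genes tested, 0.177% had a positive and 0.943% a negative interaction. These 28 and 149 genes became 992 and 1095 without the first senescent empty-vector replicate, and 1 and 3 with only the libraries compared. Without each of the other libraries in turn they ranged from 1 to 118 and from 4 to 182. The interaction was 0.34 for SIRT1 (interval −0.061 to 0.74), −0.32 for SIRT5 (interval −0.68 to 0.038) and −0.65 for SIRT4 (interval −1.53 to 0.23), and each interval spans 0. The interaction of SIRT2 was closest to 0, at 0.027 (interval −0.26 to 0.31).

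Knock-down of Lamin B1 in young cells raised SIRT3 and SIRT7. Neither the knock-down libraries nor their controls carry the reanalysis mark. The GC slopes were 0.0141 to 0.134 with siLMNB1, against −0.00633 to 0.0110 in the controls. By edgeR, 16.3% of all genes tested were called up and 16.1% were called down. The sirtuins had a median log2 fold change of 0.32 and all genes tested one of 0.039. This comparison shares the young empty-vector libraries with the first senescence comparison, so the values of both are given side by side.

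SIRT7 lay at 24.6, 23.9 and 26.8 CPM with siLMNB1, against 15.3, 15.7 and 15.3 CPM in the controls. Each knock-down library was above each control, with a log2 fold change of 0.70 (SE 0.14, 95% interval 0.41 to 0.99, edgeR adjusted p = 0.0010). SIRT7 was also the member that reached a log2 fold change of at least 0.58 among the called, where 18.2% of all genes tested did so in either direction. SIRT3 lay at 15.2, 14.7 and 16.1 CPM with siLMNB1, against 10.3, 11.1 and 10.8 CPM, with a log2 fold change of 0.51 (SE 0.12, 95% interval 0.26 to 0.76, edgeR adjusted p = 0.0031). The log2 fold changes of SIRT3 in the 2 comparisons with the young empty-vector controls were 0.51 with siLMNB1 and 0.65 in senescence, and those of SIRT7 were 0.70 and 1.12. With the offsets, SIRT3 and SIRT7 had log2 fold changes of 0.41 and 0.58 with siLMNB1 and were both called.

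SIRT1 went the other way from senescence. It lay at 39.7, 43.7 and 33.9 CPM with siLMNB1, above all 3 controls, at a log2 fold change of 0.32 (interval 0.043 to 0.60) that did not pass over all genes (edgeR adjusted p = 0.072). SIRT6 lay at 13.7, 13.9 and 15.3 CPM, below all 3 controls, at a log2 fold change of −0.22 (edgeR adjusted p = 0.28). With the offsets, SIRT1 was called up at 0.27 and SIRT6 down at −0.40 (edgeR adjusted p = 0.038 and 0.0012), and over all genes that fit called 2366 up and 3850 down, the latter 24.4% of those tested, against 2570 and 2546 without the offsets. With only the libraries compared, SIRT1, SIRT2 and SIRT6 were called as well as SIRT3 and SIRT7. That fit called 4002 of 14463 genes up and 4018 down. SIRT2 lay at 56.0, 50.7 and 52.9 CPM, above all controls (log2 fold change 0.23, edgeR adjusted p = 0.077). SIRT4 at 1.28, 0.804 and 1.12 CPM and SIRT5 at 7.44, 6.03 and 7.67 CPM overlapped their controls.

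TRF2 was also compared with the empty vector in each state. In young cells no sirtuin was called by edgeR or by DESeq2's Wald test, in a comparison where edgeR called 0.146% of all genes tested up and 0.0253% down. No sirtuin had an unadjusted p below 0.05 by edgeR, which 1523 of the 15799 genes tested had. The log2 fold changes lay between −0.090 for SIRT4 (interval −0.75 to 0.57) and 0.14 for SIRT5 (interval −0.11 to 0.40). All but SIRT5 overlapped between the groups.

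Senescent TRF2 cells were collected at PD 75 and senescent empty-vector cells at PD 71, so TRF2 and the later PD cannot be told apart here. In this comparison, edgeR called 4.85% of all genes tested up and 6.35% down with TRF2. These 766 and 1004 genes became 2217 and 2176 without the first empty-vector replicate, 272 to 862 and 444 to 870 without each of the other libraries in turn, and 2 and 0 with only the libraries compared. No sirtuin was called by edgeR or by DESeq2's Wald test. SIRT1, SIRT4 and SIRT6 had an unadjusted p below 0.05 by edgeR, but so did 4430 of the 15799 genes tested. SIRT4 lay at 1.75, 1.67 and 2.04 CPM with the empty vector and at 0.892, 1.11 and 1.25 CPM with TRF2. These libraries did not overlap, and the log2 fold change was −0.74 (interval −1.32 to −0.16, edgeR adjusted p = 0.093). SIRT1 had a log2 fold change of 0.31 and SIRT6 one of −0.33, with overlap between the groups and edgeR adjusted p-values of 0.15 each. The empty-vector replicates spread widely for these genes, and the calls depended on them. Without the first empty-vector replicate SIRT6 and SIRT7 were called down at −0.48 and −0.35, and without the second SIRT1 was called up at 0.46.

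SIRT3 lies 0.215 Mb from the end of the short arm of chromosome 11 (chr11:215030-236931, minus strand, GRCh38), and SIRT7 lies 1.34 Mb from the end of the long arm of chromosome 17 (chr17:81911939-81921323, minus strand). SIRT6 is 4.17 Mb from the end of 19p, and the other members are farther in. Within 2 Mb of the 11p end, edgeR called 40 of the 43 tested protein-coding genes up and 1 down in senescent cells with the empty vector, against 33.1% up and 35.4% down over all tested protein-coding genes. Their median log2 fold change was 1.11, and SIRT3 at 0.65 ranked 34 from the top. Within 2 Mb of the 17q end, 39 of 49 were called up and 2 down with a median of 0.71, and SIRT7 at 1.12 ranked 12. Genes near these ends were rich in GC, with a median of 62.9% at 11p and 61.4% at 17q. With the offsets, 19 were called up and 6 down at 11p, and 11 and 13 at 17q, against 28.4% up and 32.2% down over all tested protein-coding genes.

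The genes beside the sirtuins often had other values. PSMD13, whose start is 34 bases from that of SIRT3 on the opposite strand, lay at 176 CPM in young and 141 CPM in senescent cells with the empty vector and fell by 0.32 on the log2 scale (edgeR adjusted p = 0.029), with overlap between libraries. With siLMNB1 it had a log2 fold change of −0.31 (edgeR adjusted p = 0.061). RIC8A, on the other side of SIRT3 and overlapping its last 84 bases on the opposite strand, had log2 fold changes of 0.28 in senescence, where it was called, and −0.16 with siLMNB1, where it was not. With the offsets, RIC8A was called down in both comparisons at −0.29 and −0.27, and PSMD13 was called down with siLMNB1 at −0.39 but was no longer called in senescence, at −0.22 (edgeR adjusted p = 0.10). Of SIRT3 and these neighbours, SIRT3 was the one called up with siLMNB1, with and without the offsets.

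SIRT7 had a neighbour called up in the same comparisons without the offsets. PCYT2, an enzyme of phosphatidylethanolamine synthesis 506 bases away, rose by log2 fold changes of 1.29 in senescence and 0.30 with siLMNB1 (edgeR adjusted p = 6.5e-09 and 0.020), which were 0.21 and 0.11 with the offsets (edgeR adjusted p = 0.049 and 0.35), so the siLMNB1 call was lost. MAFG, a transcription factor gene on the other side whose exons share 105 bases with SIRT7, had 0.77 in senescence and −0.029 with siLMNB1. ANKRD24, whose start is 122 bases from that of SIRT6, had mean levels of 0.0819 CPM in young, 1.15 CPM in senescent empty-vector and 0.586 CPM in siLMNB1 cells and was called up in both comparisons from few reads. HERC4, a ubiquitin ligase gene next to SIRT1, fell in senescence and with siLMNB1 by 0.64 and 0.51 on the log2 scale. NFKBIB next to SIRT2 and MAP2K2 next to SIRT6 rose in senescence by 0.79 and 0.73, and had −0.060 and −0.0060 with siLMNB1. With the offsets HERC4, NFKBIB, MAP2K2 and MAFG were not called in senescence. PXN and COX6A1 beside SIRT4 were called in neither comparison, but with the offsets PXN was called down in senescence at −0.54 (edgeR adjusted p = 9.7e-05). NOL7 and GFOD1 beside SIRT5 fell with siLMNB1 by 0.44 and 0.56. In senescence NOL7 was called down at −0.25 (edgeR adjusted p = 0.011) and turned to a called 0.35 with the offsets, and GFOD1 was not called. RINL beside SIRT2 and DNAJC12 beside SIRT1 lay below 1 CPM in these conditions. In senescence DNAJC12 was called down, and RINL was called down with the offsets only.

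Genes listed for the supply of NAD+, the cosubstrate of the sirtuins, changed in both directions in senescence. The list also holds NNMT, the kinases NADK and NADK2 and the carrier SLC25A51, which do not make NAD+. Among the listed genes called down without the offsets, NAMPT was the one that makes NAD+ or a precursor of it. Of 11 tested genes of a list of 13, edgeR called 6 up and 3 down with the empty vector, and 5 up and 2 down with the offsets. Over all genes tested these shares were 32.7% up and 31.9% down, and 28.2% and 29.1% with the offsets. NAMPT, the rate-limiting enzyme of NAD+ salvage from nicotinamide, fell from 107.8 to 46.3 CPM, by 1.22 on the log2 scale (SE 0.11, edgeR adjusted p = 5.7e-08). NNMT, which methylates nicotinamide and so removes it from salvage, fell by 1.40. QPRT, which makes nicotinic acid mononucleotide from quinolinate in the route from tryptophan, rose from 18.8 to 69.1 CPM (log2 fold change 1.88, SE 0.11, edgeR adjusted p = 8.4e-10). NMNAT2, a cytoplasmic enzyme of the last step to NAD+, and NADK, which phosphorylates NAD+, rose by log2 fold changes of 1.43 and 1.15. NAPRT, NADSYN1 and NMNAT1 were also called up and the mitochondrial kinase NADK2 down. With the offsets, NAMPT had −0.62, NNMT −1.28 and QPRT 1.49, all still called, while NAPRT, NADSYN1 and NADK2 were not called at −0.13, 0.28 and −0.14 and NMRK1 was called up at 0.47.

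QPRT was the member of this list with a called interaction between senescence and vector. It lay at 30.8 CPM in senescent TRF2 cells, lower than with the empty vector by 1.16 on the log2 scale (log2 fold change −1.16, edgeR adjusted p = 5.8e-05), and its interaction was −0.89 (SE 0.16, edgeR adjusted p = 0.022). That call was kept in 6 of 12 fits that each left out a library, with values of −1.01 to −0.76 and an edgeR adjusted p of 0.0031 to 0.081, and was lost with only the libraries compared, at 0.061. With siLMNB1, NADSYN1, the NAD+ synthetase of the nicotinic acid route, rose by a log2 fold change of 0.95 while NAMPT, NMRK1 and SLC25A51, the mitochondrial NAD+ carrier, fell by 0.29, 0.28 and 0.29. With the offsets NAMPT was no longer called there, at −0.27 (edgeR adjusted p = 0.12), and NADK was called down at −0.32. QPRT had a log2 fold change of −0.018 there.

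Of the other enzymes that consume NAD+, 1 of 8 tested was called up and 5 were called down in senescence, or 1 and 2 with the offsets. Over all genes tested 32.7% were called up and 31.9% down, or 28.2% and 29.1% with the offsets, so the counts with the offsets lay near that background. PARP1, the main poly(ADP-ribose) polymerase of DNA damage, fell from 125.4 to 77.6 CPM (log2 fold change −0.69, edgeR adjusted p = 1.6e-05). TNKS, TNKS2, PARP2 and BST1 were also called down at −0.68, −0.51, −0.53 and −0.50, and with the offsets PARP1 and TNKS were called down. PARP3 was called up at 1.02, or 0.46 with the offsets. CD38, an NAD+ glycohydrolase, had too few reads to be tested. With siLMNB1, TNKS, tankyrase, fell by 0.92 and BST1 rose by 0.89 on the log2 scale.

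**Figure D4:**
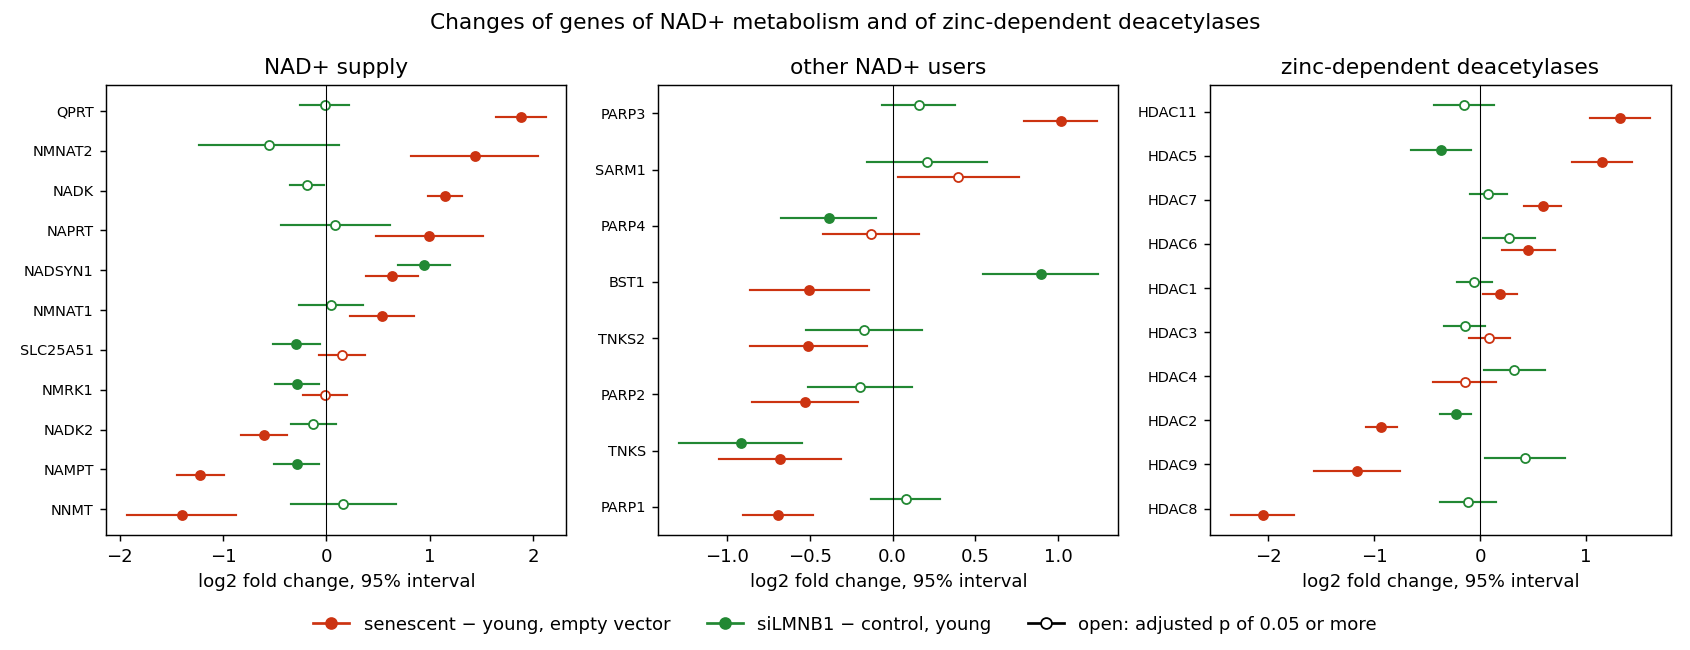
Log2 fold change with 95% confidence interval (x axis) of tested genes of NAD+ supply, other NAD+-using enzymes and zinc-dependent deacetylases, for senescent against young cells with the empty vector (red) and siLMNB1 against control (green). Open points have an adjusted p of 0.05 or more, and HDAC10 is left out because of its few reads. In senescence QPRT lies farthest right in its panel at 1.88 and HDAC8 farthest left in its panel at −2.05, and both are near 0 with siLMNB1.

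The zinc-dependent histone deacetylases, which share substrates with the sirtuins but need no NAD+, included called genes in both directions. Of HDAC1 to HDAC11, all 11 tested, 6 were called up and 3 down in senescence, and 3 and 4 with the offsets. The shares over all genes tested were 32.7% and 31.9%, or 28.2% and 29.1% with the offsets, so the count down without the offsets and both counts with them lay near the background. HDAC8 lay at 13.4 CPM in young and 3.22 CPM in senescent cells and fell by 2.05 on the log2 scale (SE 0.14, edgeR adjusted p = 3.6e-09). HDAC9 and HDAC2 fell by 1.16 and 0.93. With the offsets HDAC9 was still called at −0.74, HDAC2 was not called at −0.29 (edgeR adjusted p = 0.056), and HDAC4 was called down at −0.57 (edgeR adjusted p = 0.0011). HDAC11 and HDAC5 rose by log2 fold changes of 1.32 and 1.15, which were 0.51 and 0.32 with the offsets. HDAC7 turned from a called rise of 0.59 to a called −0.16 with the offsets, and HDAC1 and HDAC6 lost their calls up. HDAC10 rose from a mean of 0.105 to 1.36 CPM, from 0 to 6 reads per library to 11 to 72. With siLMNB1, HDAC10 was called up at 0.511 CPM, and HDAC2 and HDAC5 were called down at −0.23 and −0.37. With the offsets HDAC2 was not called there, at −0.21 (edgeR adjusted p = 0.18), while HDAC9 was called up and HDAC3 and HDAC11 down.

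Genes of known sirtuin substrates were called in shares near those of all genes. Of 11 tested of 13 listed, 3 were called up and 4 down in senescence, against 32.7% and 31.9% of all genes tested, with a median log2 fold change of −0.011. With the offsets 2 were called up and 3 down, and GLUD1 and RELA were no longer called. ACSS2 and MLYCD rose by log2 fold changes of 0.96 and 1.38, while GLUD1, the glutamate dehydrogenase modified by SIRT4, and CPS1, the carbamoyl phosphate synthetase activated by SIRT5, fell by 0.53 and 3.32. IDH2, a SIRT3 target, had a log2 fold change of 0.21 with the empty vector (edgeR adjusted p = 0.097) and rose by 0.86 with TRF2, and its interaction of 0.65 was called (SE 0.15, edgeR adjusted p = 0.049). That call was kept in 2 of 12 fits that each left out a library, those without the first or the third senescent empty-vector replicate, with an edgeR adjusted p of 0.0024 to 0.14 over the 12. It was lost with only the libraries compared (edgeR adjusted p = 0.11). With the offsets the interaction of IDH2 was called at 0.88, and with replicate number in the model at 0.66 (edgeR adjusted p = 0.011 and 0.038). That of ACSS2 was called with the offsets at 0.60, but not with replicate number in the model, at 0.48 (edgeR adjusted p = 0.035 and 0.12). FOXO3 fell with siLMNB1 by 1.04 and had −0.096 in senescence. ACSS1 had few reads, at 0.941 CPM in young and 0.0432 CPM in senescent cells. ACADL had too few reads and SOD2 was not matched by symbol, so neither was analysed here.

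Of 3 proteins that act on SIRT1, HIC1, which represses the SIRT1 gene, rose in senescence by a log2 fold change of 0.77, and RPS19BP1, an activator known as AROS, by 0.64. CCAR2, the inhibitor known as DBC1, had 0.10 (edgeR adjusted p = 0.26). The offsets turned HIC1 to −0.23 and CCAR2 to −0.34, both called down, and RPS19BP1 stayed called up at 0.31. With siLMNB1, CCAR2 was called up at 0.25, or not called at 0.15 with the offsets (edgeR adjusted p = 0.090), HIC1 had a log2 fold change of 0.031, and RPS19BP1 was called down with the offsets only, at −0.46.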

How the data were processed

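RNA was sequenced from 15 MRC-5 libraries (paired reads of 2 × 150 bp). The raw counts per gene that the authors deposited came from the GeneCounts mode of STAR, run on GRCh38 after trimming by Trimmomatic, and were not normalized. The annotation release and the strand setting are not given in the sources used here. Genes were named with GENCODE 44, which matched 56948 of 57272 table entries. Groups came from the labels.

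Counts of all 15 libraries were fitted in edgeR 4.0.16 (R 4.3.3, limma 3.58.1) with TMM, filterByExpr by condition and a mean for each of the 5 conditions. The quasi-likelihood test was adjusted by Benjamini-Hochberg over 15799 genes, with a threshold of 0.05. Levels are CPM of TMM-scaled libraries, or RPKM over joined exons. Offsets for GC content and exon length came from loess curves (span 0.3, prior count 1) per library against the mean of the young empty-vector libraries. DESeq2 1.42.0 served as an alternative. The fits were tested on simulated data. The 7 members, the gene lists and the rule for named genes (every sirtuin, each neighbouring protein-coding gene, and list genes with the largest called changes) were chosen with earlier results of these data known. Replicate libraries differed by more than sampling noise (chi-square per degree of freedom 3.76 to 142), so none was counted as a duplicate. Same-numbered replicates correlated by −0.09 to 0.20 in their deviations from the group means, over 0.1 in 2 of 30 pairs, so the numbers were not taken as pairs. The precision is limited by 3 replicates per condition. A member of the substrate list is not reported here by name. The left-out libraries for QPRT and IDH2 and the offsets near chromosome ends were added after seeing the data. Promoter sequences were read from RefSeq tables. Figures were drawn with matplotlib 3.10.9 in Python 3.11.15.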

Additional observations from a re-analysis of the deposited data

How the results depend on the processing

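The 3 settings with GC and length offsets or fewer libraries moved the most counts. With the offsets, sirtuins called in senescence with a log2 fold change of at least 1 numbered 1, those called in senescence with TRF2 numbered 3, and those called with siLMNB1 numbered 4. With a replicate block and the offsets together, those sirtuin counts were 1, 3 and 4. Senescence with the empty vector gave 4 sirtuin calls, and TRF2 in senescent cells gave 1, SIRT1. Over all genes, that fit called 4370 up and 4605 down in senescence with the empty vector. It called 4667 and 4008 in senescence with TRF2, and 2334 and 3813 with siLMNB1. For TRF2 in senescent cells it called 1399 and 1068, against 766 and 1004 without block and offsets. SIRT2 in senescence with the empty vector reversed to −0.084 with the offsets and −0.086 with the block added. With only the libraries compared, 5 sirtuins were called with siLMNB1, where 4002 of 14463 genes were called up and 4018 down. The cause was not tested. The replicate block alone changed no count of calls (7, 5, 2 and 0 for senescence with the empty vector, senescence with TRF2, siLMNB1 and the TRF2 and interaction comparisons), and neither did DESeq2's size factors or Wald test move a count by over 1.5 times. Leaving out each replicate gave 1 to 3 sirtuins called with a log2 fold change of at least 1 and 0 to 2 called for TRF2 in senescent cells. The share of all genes called with a change of that size was not counted in these fits or with the offsets. It was 28.4% in the main fit for senescence with the empty vector. Over all genes, the fits that left out a replicate called 272 to 2217 up and 444 to 2176 down for TRF2 in senescent cells. Among single sirtuin values, 523 kept direction and call, 11 lost the call, 18 gained it, 34 uncalled values moved and 2 reversed. SIRT4, with 15 to 63 reads per library, is limited most by depth.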

Other observations

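Across the 15 libraries, the tested gene whose log2 CPM followed SIRT1 most closely was BROX (Pearson r = 0.981), followed by HS2ST1 (0.975). For SIRT6 these were DVL1 (0.989) and AGAP3 (0.988), for SIRT7 HPS1 (0.980) and CYBC1 (0.976), and for SIRT2 CRIP2 (0.987) and TMEM161A (0.982). SIRT3 was followed by COPZ2 (0.970) and TBC1D2 (0.967), SIRT4 by SLC13A3 (0.940) and SLC29A3 (0.891), and SIRT5 by PIAS3 (0.840) and PROSER3 (0.834). These values describe 15 libraries that fall into a young and a senescent set, share controls and differ in GC slope between the sets, so they carry no test.

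The summed level of the 7 sirtuins per length was 25.8 ± 0.5 RPKM (SD, n = 3) in young cells with the empty vector and 25.7 ± 0.7 RPKM with TRF2. It was 30.7 ± 0.4 RPKM with siLMNB1, 37.7 ± 5.7 RPKM in senescent cells with the empty vector and 35.2 ± 1.0 RPKM in senescent TRF2 cells. The 3 young empty-vector libraries lay below all siLMNB1 and all senescent libraries, and the 2 senescent conditions overlapped. How often other sets of genes separate like this was not counted. These sums were computed without the offsets, with which SIRT2 and SIRT6, high members of the sum, were not called in senescence.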
